A study of Mus musculus with 16 samples.

Results

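Frizzled proteins, encoded in the mouse by Fzd1 to Fzd10, are the cell surface receptors of secreted Wnt proteins. The 10 genes were taken by symbol from 46078 genes counted in RNA of mouse intestinal organoids, and each matched 1 Ensembl identifier. A Wnt protein binds the cysteine-rich outer domain of a Frizzled protein together with the co-receptor Lrp5 or Lrp6, Dishevelled adaptors are recruited inside the cell, and beta-catenin escapes degradation. Some Frizzled proteins also take part in planar polarity, the alignment of cells within a sheet, without beta-catenin. In the gut epithelium Wnt signals keep crypt stem cells dividing, Fzd5 has been tied to the maturation of Paneth cells, Fzd7 to Lgr5-positive stem cells, and the ubiquitin ligases Rnf43 and Znrf3 remove Frizzled proteins from the surface.

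Organoids are small epithelial bodies that grow out of isolated crypts, here embedded in Matrigel and taken from mice of the C57BL6 background. Per the labels' protocols the crypts came from Lgr5-EGFP-IRES-CreERT2 mice (wild type) or from Apc fl/fl mice with Lgr5-EGFP-IRES-CreERT2 or Villin-CreERT2, and 4OH-Tamoxifen was given in culture to recombine Apc. Lgr5 drives the recombinase in stem cells and Villin in the whole gut epithelium, and the labels do not say which of these lines a library came from. The Apc protein holds together the machinery that destroys beta-catenin, so its loss acts below the receptors. All organoids were fed EGF, R-spondin and Noggin. Wild type organoids carried a red mCherry construct and mutant organoids a green Venus construct. For Apc-mutant conditioned medium the labels give 3 libraries each of Apc mutant and of WT organoids, at day 2 and at day 4 alike. A further 2 untreated libraries of each genotype were from day 2. The series-wide design text lists the groups differently, and groups were formed from the labels of each library. Nothing in the labels says that replicates were separate cultures or animals, so p-values measure the spread between these libraries, which may be technical.

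Gene counts per library ran from 17986815 to 29152692 with conditioned medium and from 8325979 to 13027701 without it. Notum, a Wnt target that was high in both untreated mutant libraries (258 and 312 CPM, gene counts scaled to a common library size by TMM), stayed at or below 1.03 CPM in all 12 conditioned medium libraries. Nkd1, another target, stood at 440 and 533 CPM against at most 4.72 CPM. Both go against the label of the 6 conditioned medium libraries under Apc mutant, so these are named by their label below, and each direction given there is one between labels. Their titles hold APCCM or WTCM, which can also name the source of the medium. Apc itself, counted over the whole gene, stood at 218 to 249 CPM in untreated mutant, 69.3 to 76.2 CPM in untreated wild type and 237 to 281 CPM in conditioned medium libraries, and such counts do not separate the recombined part. Xist lay at 1940 to 3710 CPM in untreated and 1.17 to 11.4 CPM in conditioned medium libraries, and Ddx3y, a Y-linked gene, at 0 to 0.164 and 86.9 to 129 CPM. Medium therefore cannot be told apart from the source of the cells, and levels across the media are given side by side without a test. The interaction of label and medium below does compare label differences across the media, and the same limit applies to it. Titles of all day 4 and untreated libraries hold rep before the number, while those of day 2 in conditioned medium do not. What this split stands for is not given. Day in conditioned medium cannot be told apart from it, and both interactions compare label differences across it. Replicate 1 of the WT label on day 4 stood apart from its group (chi-square per degree of freedom 43.9 and 46.4 against the other replicates, at most 6.55 in all other pairs). Calls of named genes in its group are given below with and without it. Marker sums and marker calls, shares of all genes and likeness values include it.

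Defining markers of the epithelium were present in every library. The 8 markers summed to 3482 to 3785 CPM in untreated mutant, 5694 to 6185 CPM in untreated wild type and 6293 to 7378 CPM in conditioned medium libraries. In untreated mutant libraries 5 of them were lower and 2 higher, and their part in the Frizzled differences was not tested. Fibroblast and muscle markers summed to at most 3.17 CPM, with Col3a1, Dcn and Lum at 0 in all libraries, endothelial markers to at most 2.17 CPM, with Cdh5 at 0, immune markers to at most 7.59 CPM, and neural and glial markers to at most 6.08 CPM, with Sox10 at 0. In these bulk samples, fewer cells of a type and less RNA per cell cannot be told apart.

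Promoters of 4 members are shown first, because Fzd5 was lower in untreated mutant libraries where Fzd1, Fzd7 and Fzd10 were higher. RefSeq (GRCm38.p6) gave a window from 250 bases before to 50 bases after the start for 6 of the 10 members, Fzd1, Fzd4, Fzd5, Fzd7, Fzd9 and Fzd10. Sequences read 5′ to 3′ on the strand of the gene, and capitals mark the core of the TCF/LEF motif, CTTTG or its complement CAAAG, to which the transcription factors that carry beta-catenin bind.
Fzd5, lower in untreated mutant libraries, minus strand, chr1:64737701-64738000: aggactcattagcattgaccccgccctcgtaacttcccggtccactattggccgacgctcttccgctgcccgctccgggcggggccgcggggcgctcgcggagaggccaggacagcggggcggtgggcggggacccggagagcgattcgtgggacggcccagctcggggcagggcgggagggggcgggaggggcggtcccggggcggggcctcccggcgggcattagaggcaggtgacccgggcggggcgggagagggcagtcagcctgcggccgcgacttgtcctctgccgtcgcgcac
Fzd10, read in untreated mutant libraries alone, plus strand, chr5:128600856-128601155: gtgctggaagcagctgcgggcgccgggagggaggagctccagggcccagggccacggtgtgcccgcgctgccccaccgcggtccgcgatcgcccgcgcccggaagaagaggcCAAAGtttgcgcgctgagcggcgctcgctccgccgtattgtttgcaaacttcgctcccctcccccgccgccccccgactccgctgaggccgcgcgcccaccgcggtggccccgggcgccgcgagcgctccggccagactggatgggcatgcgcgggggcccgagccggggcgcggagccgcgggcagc
Fzd1, higher in untreated mutant libraries, minus strand, chr5:4758167-4758466: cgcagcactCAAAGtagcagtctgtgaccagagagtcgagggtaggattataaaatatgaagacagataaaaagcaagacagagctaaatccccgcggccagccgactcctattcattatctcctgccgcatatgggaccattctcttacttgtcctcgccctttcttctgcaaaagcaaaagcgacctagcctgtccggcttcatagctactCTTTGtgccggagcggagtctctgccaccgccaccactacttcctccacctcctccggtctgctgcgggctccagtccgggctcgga
Fzd7, higher in untreated mutant libraries, plus strand, chr1:59481897-59482196: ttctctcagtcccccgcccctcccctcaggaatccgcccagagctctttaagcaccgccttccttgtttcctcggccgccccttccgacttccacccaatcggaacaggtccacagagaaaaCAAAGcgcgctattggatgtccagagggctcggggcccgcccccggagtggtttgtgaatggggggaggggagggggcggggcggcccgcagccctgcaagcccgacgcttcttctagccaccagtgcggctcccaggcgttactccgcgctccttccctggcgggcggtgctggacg
The core was found 2 times in the Fzd1 window, 1 time each in the Fzd7 and Fzd10 windows, and 0 times in the windows of Fzd4, Fzd5 and Fzd9. Of 32851 mouse promoters of the same length, 53.9% held the core on either strand. The longer form CTTTGAT, held by 3.73% of them, was in none of the 6 windows. G and C made up 75.7% of the Fzd5, 77.7% of the Fzd10, 66.7% of the Fzd7 and 54.0% of the Fzd1 window. The windows are counted from the RefSeq start, which is not the gene start of the GENCODE coordinates given below for Fzd1, Fzd4, Fzd7, Fzd9 and Fzd10. The Fzd1 and Fzd7 windows end before the GENCODE gene begins, and the Fzd10 window lies inside its GENCODE exon. A match is a description of these letters, not a site of binding.

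Without conditioned medium, on day 2, the receptor set of Apc mutant organoids differed from that of wild type ones. Fzd5 fell 12.5-fold, Fzd8 fell, and Fzd1, Fzd2, Fzd3, Fzd6 and Fzd7 rose, while Fzd10 was read in mutant libraries alone. In this comparison 62.5% of all 16510 genes tested had an adjusted p under 0.05 (32.4% higher, 30.1% lower; quasi-likelihood test of edgeR, Benjamini-Hochberg adjusted). Of the 10 members 8 passed, 6 higher and 2 lower. Fzd10 reached the filter on low counts only through the untreated mutant group, where it is high, and without it 7 of 9 passed. With most genes called here, these counts say little about the receptors as a family, and the values of each member follow. The median log2 fold change was 0.64 over the 10 members, Fzd10 included, and 0.00 over all genes. Without Fzd10 the middle value of the 9 is that of Fzd7, 0.58.

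Fzd5 (GRCm38 chromosome 1, 64730558 to 64737751, minus strand, 2 exons) stood at 12.1 and 10.5 CPM in untreated mutant organoids, compared with 142 and 138 CPM in wild type ones. All mutant values lay far below all wild type values. The log2 fold change was -3.64 (SE 0.08, adjusted p = 1.7e-22). Markers of differentiated cells moved with it. Of 5 Paneth cell markers 4 were lower and 1 higher in mutant libraries, and their sum was 776 to 825 CPM against 6556 to 6804 CPM. Of 5 enterocyte markers 4 were lower and 1 higher (sum 305 to 309 against 6522 to 6777 CPM), and all 5 enteroendocrine markers were lower (4.09 to 4.28 against 417 to 419 CPM, with Gip and Gcg at 0 in mutant libraries). The part of these cells in the Fzd5 result was not tested. Exons of Fzd5 overlap Gm38058 on the opposite strand, which held 0 to 40 counts per library, and the strand setting of the counting is not given in the sources used here.

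Fzd10 (chromosome 5, 128600844 to 128604093, plus strand, 1 exon) had 54 and 53 counts in the mutant libraries, or 3.74 and 3.24 CPM, and 0 counts in both untreated wild type and all 12 conditioned medium libraries. A floor of 3 counts over the group makes it at least 24.9-fold higher than in untreated wild type libraries, for counting error only. In conditioned medium the same floor over 12 libraries bounds it at 0.0120 CPM.

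Fzd1 (chromosome 5, 4753839 to 4758035, minus strand, 1 exon) stood at 9.98 and 10.1 CPM in mutant against 2.37 and 1.200 CPM in wild type libraries, without overlap. Its log2 fold change was 2.43 (SE 0.27, adjusted p = 2.1e-08). Fzd3 (chromosome 14, 65192449 to 65262463, minus strand), which in mice serves axon guidance and planar polarity, stood at 6.79 and 7.71 against 2.13 and 1.09 CPM (log2 fold change 2.12, SE 0.30, adjusted p = 9.1e-07). These 2 genes showed the largest rises among members that were read in both genotypes.

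Fzd6 (chromosome 15, 39006034 to 39038188, plus strand), which acts in planar polarity of hair and skin, was read at 38.3 and 36.6 CPM in mutant and 14.3 and 19.0 CPM in wild type ones (log2 fold change 1.19, SE 0.14, adjusted p = 4e-08). Its exons overlap Gm26704 on the opposite strand, with 2 to 13 counts per library. Fzd7 (chromosome 1, 59482424 to 59486955, plus strand, 1 exon) rose less, from 56.4 and 51.7 CPM to 83.3 and 78.4 CPM (log2 fold change 0.58, SE 0.08, adjusted p = 1.9e-06). For Fzd2 (chromosome 11, 102604396 to 102608058, plus strand, 1 exon) the values were 9.50 and 12.1 CPM in mutant and 7.19 and 5.89 CPM in wild type ones (log2 fold change 0.71, SE 0.19, adjusted p = 0.0018). The libraries of both genotypes did not overlap for any of these 3 genes. Crypt stem cell markers did not move as one beside them, since 3 of 4 were higher and 1 lower, with sums of 1142 to 1162 CPM in mutant and 2459 to 2678 CPM in wild type libraries. The lower one, Olfm4, had means of 0.257 CPM in mutant and 1982 CPM in wild type libraries, so the lower sum follows this gene. The part of these markers in the rise of the receptors was not tested.

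Fzd8 (chromosome 18, 9212163 to 9218136, plus strand, 1 exon) rested on few counts, 3 and 5 in mutant and 21 and 14 in wild type libraries, or 0.208 and 0.306 CPM against 1.72 and 1.53 CPM. The log2 fold change was -2.62 (SE 0.59, adjusted p = 0.00039). Fzd4 (chromosome 7, 89404355 to 89413134, plus strand, 2 exons), the receptor that also binds Norrin in the retina, stood at 6.24 and 5.45 against 7.77 and 5.02 CPM. Fzd9 (chromosome 5, 135248938 to 135251230, minus strand, 1 exon) stood at 2.77 and 3.37 against 2.78 and 1.96 CPM. Neither passed, the libraries overlapped for both, and the approximate 95% intervals of the log2 fold change (1.96 SE) ran from -0.56 to 0.24 for Fzd4 and from -0.16 to 0.86 for Fzd9.

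**Figure D1:**
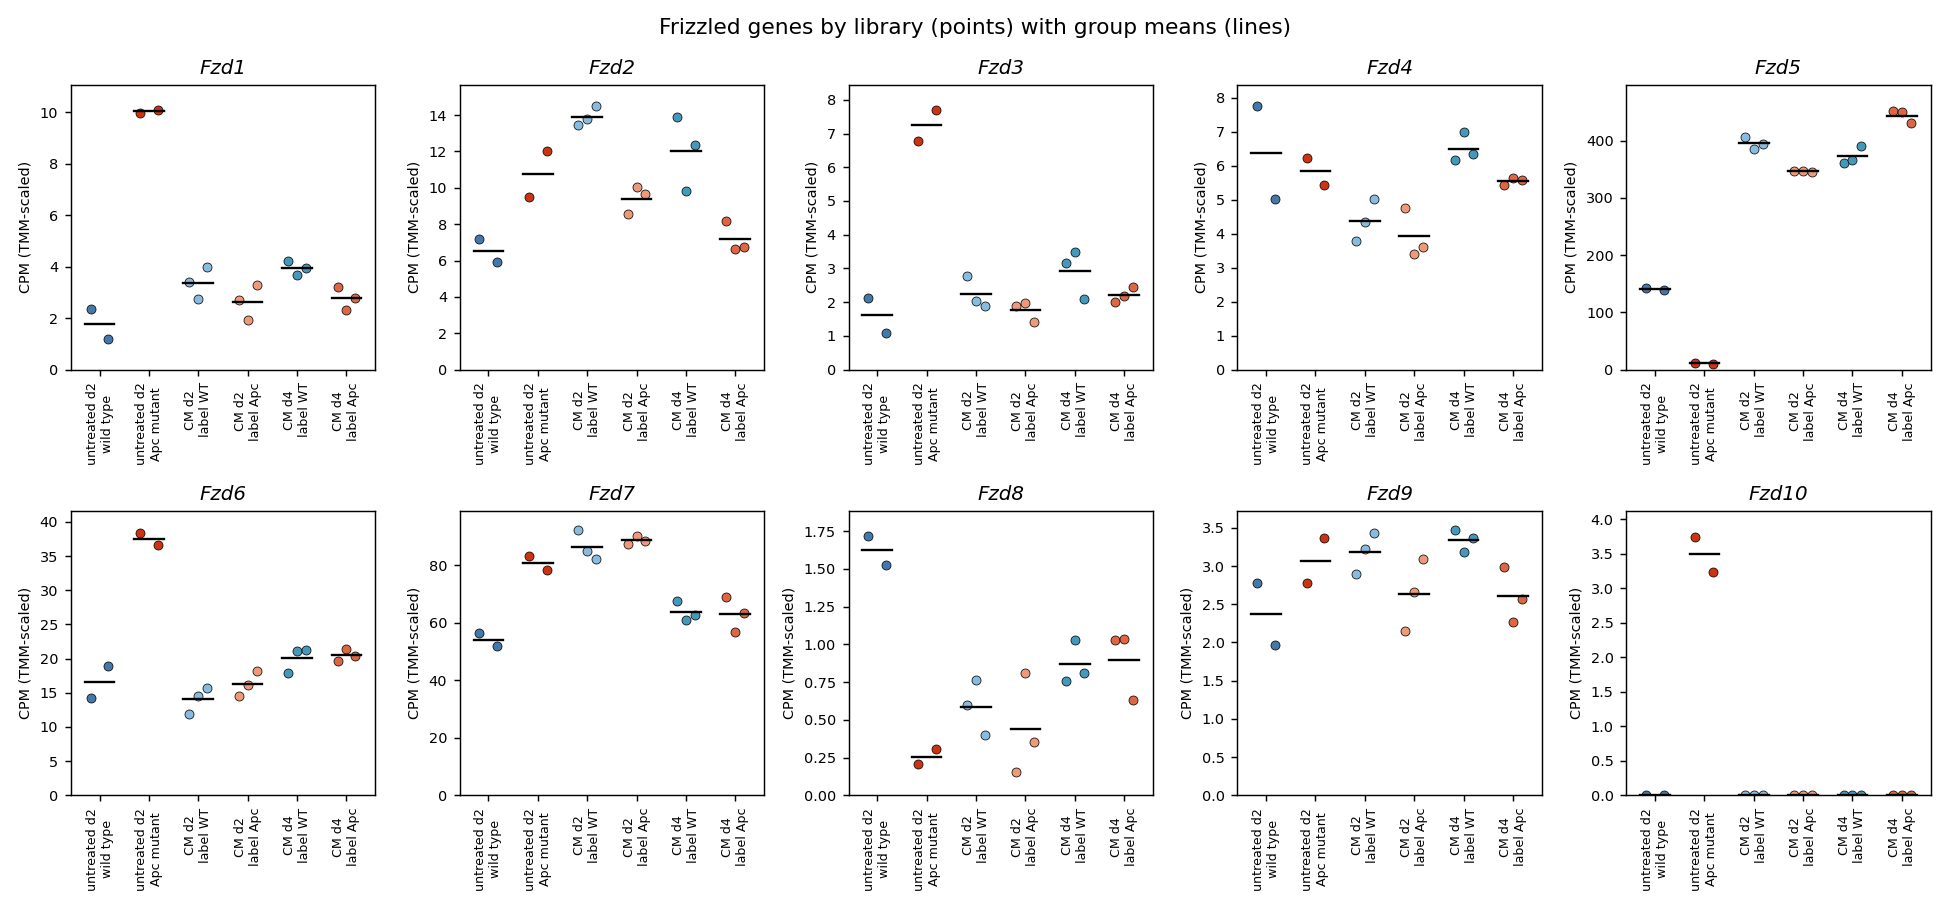
TMM-scaled CPM of each Frizzled gene (y axes, linear from 0, differing between panels) in each of 16 libraries (points) by label group (x axes), with the group mean as a line; CM is conditioned medium and d is day. Fzd5 is at 10.5 to 12.1 CPM in untreated mutant libraries and at 138 CPM or more in all others, and Fzd10 is above 0 in the untreated mutant group alone.

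Levels of different members were compared per length, as CPM per kilobase of annotated exons. In untreated wild type libraries Fzd5 led with 20.3 ± 0.406 CPM per kilobase (SD, n = 2), followed by Fzd7 with 11.9 ± 0.732, Fzd6 with 3.45 ± 0.687 and Fzd2 with 1.79 ± 0.251. In untreated mutant libraries the order was Fzd7 with 17.8 ± 0.761 CPM per kilobase (SD, n = 2), Fzd6 with 7.78 ± 0.247, Fzd2 with 2.94 ± 0.493, Fzd1 with 2.39 ± 0.0190 and Fzd5 with 1.63 ± 0.164. Neighbours in these stretches of the order did not overlap between libraries. Lower down in wild type, Fzd9 overlapped Fzd4, and Fzd1 overlapped Fzd8.

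As a share of the summed level per kilobase of all 10 members, Fzd5 made up 49.8 and 51.0% in untreated wild type and 4.73 and 4.20% in untreated mutant libraries. The share of Fzd7 was 48.0 to 49.8% in mutant against 29.1 to 30.1% in wild type libraries, and that of Fzd6 21.1 to 21.6% against 7.18 to 10.1%. The sum itself differed much less, at 36.5 ± 0.607 CPM per kilobase in mutant and 40.3 ± 1.52 in wild type libraries (SD, n = 2 each). The ratio of Fzd5 to Fzd7 per length was 0.0912 ± 0.00528 in mutant and 1.70 ± 0.0704 in wild type libraries (SD, n = 2 each). These shares restate the levels above and carry no test of their own.

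In conditioned medium Fzd5 led in all 4 label groups, at 50.1 to 64.2 CPM per kilobase in the group means, and made up 63.4 to 75.1% of the sum. Fzd7 came next at 13.9 to 19.5 CPM per kilobase. Fzd6 and Fzd2 followed, with Fzd2 ahead of Fzd6 in the WT label on day 2 only and an overlap of both in the WT label on day 4. Fzd3 and Fzd8 were the lowest members read in conditioned medium, at most 0.228 CPM per kilobase in the group means, and overlapped in 3 of the 4 groups.

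**Figure D2:**
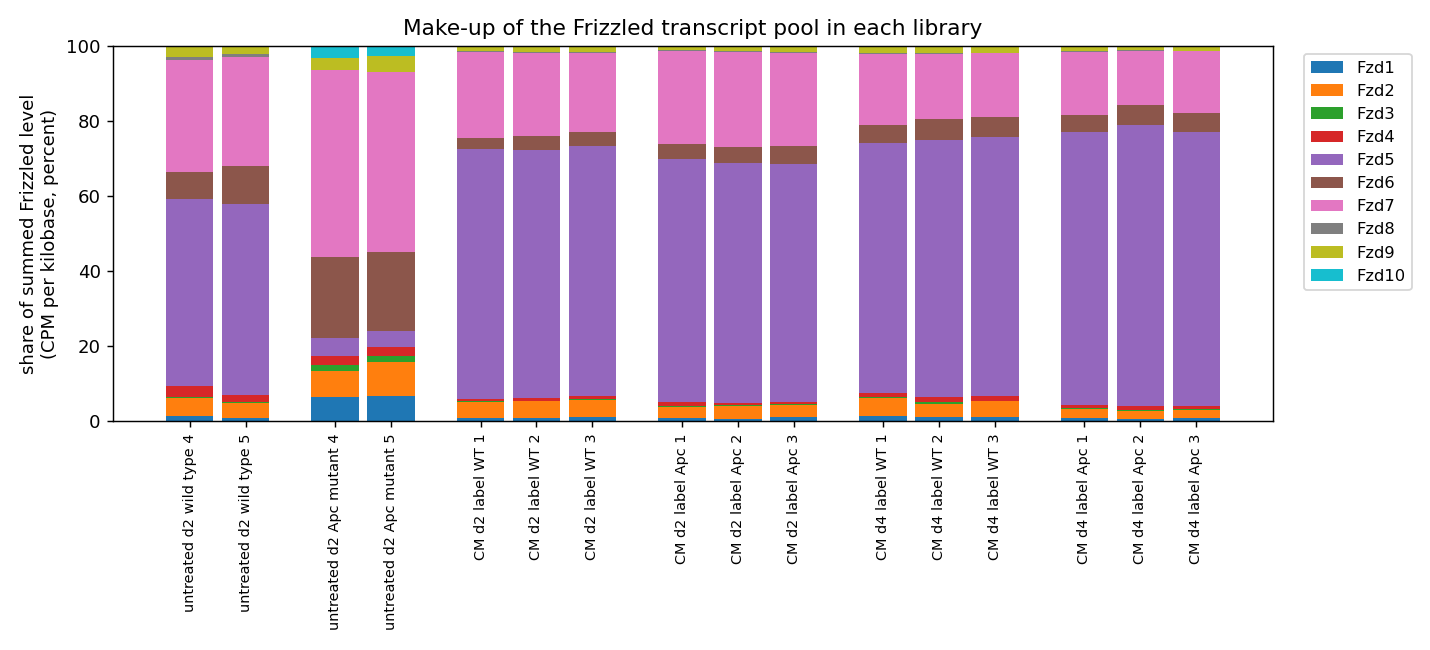
Share of each Frizzled gene in the summed level of the 10 genes (y axis, percent of CPM per kilobase of exons) in each of 16 libraries (bars, by group and replicate). The Fzd5 segment is 4.20 to 4.73% in untreated mutant libraries and 49.8 to 75.1% in all others.

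Within conditioned medium the label differences were small and touched few receptors. On day 2 the test called 16.7% of all genes (8.54% higher and 8.15% lower under the Apc mutant label) and 2 of 10 members, both lower. On day 4, 15.6% passed (7.83% higher, 7.8% lower), with 1 member higher and 1 lower. Fzd10, at 0 counts in conditioned medium, could not be called, and without it the counts were 2 of 9 on each day. Beside 16.7% and 15.6% of all genes, such counts say little about the receptors as a family. The day 2 and day 4 comparisons use different libraries.

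Fzd2 was lower under the Apc mutant label on both days. On day 2 it stood at 8.55, 10.02 and 9.63 CPM against 13.4, 13.8 and 14.5 CPM under the WT label (log2 fold change -0.57, SE 0.12, adjusted p = 0.0021). On day 4 the values were 8.17, 6.66 and 6.75 CPM against 13.9, 9.80 and 12.3 CPM (log2 fold change -0.74, SE 0.13, adjusted p = 0.00018). The labels did not overlap on either day. Without replicate 1 of the WT label, which holds the highest day 4 value, the day 4 log2 fold change was -0.63 (adjusted p = 0.0018).

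Fzd5 was lower under the Apc mutant label on day 2 and higher on day 4. On day 2 it stood at 347, 346 and 345 CPM against 407, 386 and 395 CPM under the WT label (log2 fold change -0.19, SE 0.05, adjusted p = 0.0076). On day 4 it stood at 451, 449 and 431 CPM against 361, 366 and 391 CPM (log2 fold change 0.25, SE 0.05, adjusted p = 0.00064, and 0.23 with adjusted p = 0.0046 without replicate 1 of the WT label). The labels did not overlap on either day, and the test of the change in the label difference between days gave 0.45 (SE 0.07, adjusted p = 0.00038 by edgeR, 0.42 and adjusted p = 0.0014 without that replicate). Of all genes 2.13% passed this test (0.884% upward, 1.24% downward), and Fzd5 was the 1 member that did. Paneth cell markers summed to 5538 to 6000 CPM under the Apc mutant label and 4135 to 4293 CPM under the WT label on day 2, and to 4963 to 5297 and 5285 to 6147 CPM on day 4. Enterocyte markers summed to 6472 to 6779 and 6281 to 6731 CPM on day 2, and to 8215 to 8753 and 8576 to 9520 CPM on day 4. Single markers did not all follow these sums. Of 5 Paneth cell markers 4 were higher and 0 lower under the Apc mutant label on day 2, and 2 higher and 1 lower on day 4. Of 5 enterocyte markers 2 were higher and 0 lower on day 2, and 2 higher and 1 lower on day 4. Of 5 enteroendocrine markers 4 were higher and 0 lower on each day. The part of these markers in the Fzd5 difference was not tested.

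The other members did not pass between labels. Fzd1, Fzd4 and Fzd9 did not overlap on day 4, where each was lower under the Apc mutant label, with log2 fold changes of -0.50, -0.23 and -0.35 and adjusted p of 0.081, 0.31 and 0.19. Without replicate 1 of the WT label these were -0.46, -0.26 and -0.33, with adjusted p of 0.19, 0.33 and 0.32. Fzd7 was measured closely enough to bound the difference. Its approximate 95% interval ran from -0.09 to 0.16 on day 2 and from -0.14 to 0.11 on day 4 on the log2 scale (-0.11 to 0.16 on day 4 without replicate 1 of the WT label).

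**Figure D3:**
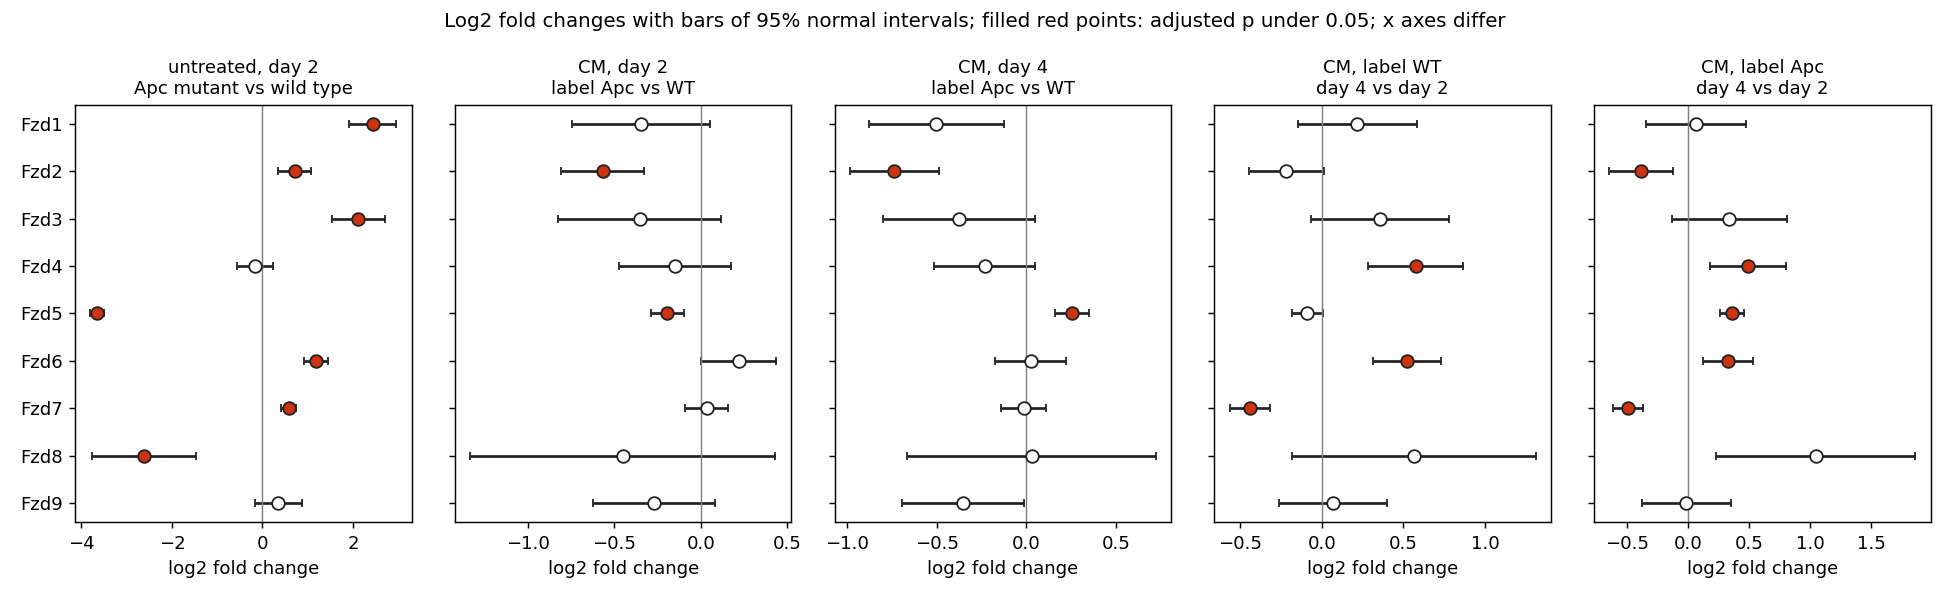
Log2 fold change (x axes, differing between panels) of 9 Frizzled genes (rows) in 5 comparisons, with bars of 1.96 standard errors and filled red points for an adjusted p under 0.05 by edgeR; Fzd10 is left out because at least 1 group is at 0 counts in each comparison. Fzd5 is at -3.64 in untreated libraries, at -0.19 on day 2 and at 0.25 on day 4 in conditioned medium.

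The label differences in conditioned medium were also set against the genotype differences without it. The cells differ in source between the media, so this comparison cannot separate medium from cells, and the label may not name the genotype. The interaction of label and medium on day 2 called 53.1% of all genes (26.7% upward, 26.4% downward) and 7 of 10 members, 2 upward and 5 downward. Upward means that the difference in conditioned medium was the more positive one. Fzd10, with 0 counts outside the untreated mutant group, could not be called by edgeR, and without it the count was 7 of 9. Fzd5 had the largest value, a change of 3.45 in the log2 difference (SE 0.09, adjusted p = 2.4e-20), and Fzd1 the next (-2.78, SE 0.34, adjusted p = 1.9e-07). The log2 differences behind them were -0.19 in conditioned medium and -3.64 in untreated libraries for Fzd5. For Fzd1 they were -0.35 and 2.43, so both values come mostly from the untreated libraries. Fzd4 was the closest to 0, at 0.01 (approximate 95% interval -0.50 to 0.53).

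From day 2 to day 4 in conditioned medium, Fzd7 fell and Fzd4 and Fzd6 rose under both labels. Differences between days here and below cannot be told apart from the split in library titles. Under the Apc mutant label the rises of Fzd4 and Fzd6 lost the call in most fits that left out a library, as given below. Under the WT label 24.1% of all genes passed (12.5% higher and 11.6% lower on day 4) and 3 of 10 members did, 2 higher and 1 lower. Under the Apc mutant label 23.9% passed (12.2% higher, 11.7% lower) and 5 members did, 3 higher and 2 lower. Fzd10, at 0 counts in conditioned medium, could not be called, and without it these were 3 and 5 of 9. The difference between the labels in these counts was not tested, and the interaction of label and day passed for Fzd5 alone among the members.

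Under the WT label Fzd7 went from 92.1, 84.9 and 82.2 CPM to 67.6, 61.1 and 62.8 CPM (log2 fold change -0.44, SE 0.06, adjusted p = 1.8e-05). Under the Apc mutant label it went from 87.3, 89.96 and 88.4 CPM to 68.8, 56.8 and 63.5 CPM (log2 fold change -0.49, SE 0.06, adjusted p = 3.6e-06). Every day 4 library lay below every day 2 library. Crypt stem cell markers, beside it, summed to 3154 to 3370 CPM on day 2 and 3390 to 3510 CPM on day 4 under the WT label, where 0 of 4 passed, and to 2406 to 2576 and 1729 to 1896 CPM under the Apc mutant label, where 3 of 4 were lower. Most of each sum was Olfm4, with means of 2689 CPM on day 2 and 2861 CPM on day 4 under the WT label. Under the Apc mutant label its means were 1973 and 1379 CPM. The part of these markers in the Fzd7 result was not tested.

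Fzd6 went from 11.9, 14.6 and 15.7 CPM to 17.9, 21.04 and 21.3 CPM under the WT label (log2 fold change 0.52, SE 0.11, adjusted p = 0.00076). Under the Apc mutant label it went from 14.6, 16.2 and 18.2 CPM to 19.6, 21.5 and 20.4 CPM (0.33, SE 0.11, adjusted p = 0.025). The days did not overlap. Fzd4 went from 3.77, 4.34 and 5.03 CPM to 6.18, 6.98 and 6.35 CPM under the WT label (0.57, SE 0.15, adjusted p = 0.0066). Under the Apc mutant label its values were 4.76, 3.42 and 3.60 CPM on day 2 and 5.43, 5.63 and 5.57 CPM on day 4 (0.49, SE 0.16, adjusted p = 0.025). Without replicate 1 of the WT label on day 4, the log2 fold changes under that label were 0.60 for Fzd6, 0.61 for Fzd4 and -0.48 for Fzd7, and all 3 still passed.

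Fzd5 under the Apc mutant label rose from 346 ± 1.01 to 444 ± 11.3 CPM (SD, n = 3 each), a log2 fold change of 0.36 (SE 0.05, adjusted p = 6.8e-06), while under the WT label it stood at 396 ± 10.6 and 372 ± 16.2 CPM (-0.09, adjusted p = 0.21). Fzd2 fell under the Apc mutant label (-0.39, SE 0.13, adjusted p = 0.036). The rest were nearer the threshold. Leaving out 1 of 4 libraries under the Apc mutant label took the count of members from 5 to 2 or 3, with 3 without replicate 2 or 3 of day 2 or replicate 3 of day 4 and 2 without replicate 2 of day 4. Fzd5 and Fzd7 passed each time, while Fzd2 and Fzd4 lost the call in all 4 of these fits, with adjusted p up to 0.13 and 0.11. Fzd6 lost it in all of them but the fit without replicate 3 of day 2, with adjusted p up to 0.088. Fzd6 also lost it without replicate 1 of day 2 (adjusted p = 0.14). Fzd4 under the WT label reached an adjusted p of 0.050 without replicate 1 of day 2. Fzd8 under the Apc mutant label did not pass (log2 fold change 1.04, adjusted p = 0.072), and it rested on 3, 14 and 7 counts on day 2. It gained the call without replicate 2 of day 2 (1.77, adjusted p = 0.0083) and without replicate 3 of day 4 (1.26, adjusted p = 0.050), where it is 1 of the 3 members counted.

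Partner genes of the receptors were taken from a list of 33 genes for co-receptors, other Wnt receptors, ligases, R-spondin receptors, adaptors, decoys and receptor partners, of which 22 passed the filter. In untreated libraries, where 32.4% of all genes were higher and 30.1% lower, 13 were higher and 1 lower in mutant organoids, with a median log2 fold change of 0.83. Sfrp5, Dkk2, Dkk3, Adgra2 and Reck reached the filter only through the untreated mutant group, where they are high, and without these 5 the count was 11 higher and 1 lower of 17, with a median of 0.61. Sfrp1, Sfrp2 and Sfrp4, secreted decoys that bind Wnt proteins, and Ndp, which encodes the Fzd4 ligand Norrin, had 0 counts in all 16 libraries.

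Rnf43, a ligase that removes Frizzled proteins, stood at 513 and 556 CPM in untreated mutant against 79.6 and 81.2 CPM in wild type ones (log2 fold change 2.73, SE 0.07, adjusted p = 3.7e-21). For Znrf3, its relative with the same role, the values were 104 and 97.9 against 24.9 and 27.0 CPM (1.97, SE 0.08, adjusted p = 4.1e-17). Both rose without overlap between genotypes. The co-receptors moved in opposite directions, with Lrp5 at 183 and 234 against 151 and 122 CPM (0.61, SE 0.09, adjusted p = 2.3e-06) and Lrp6 at 123 and 111 against 130 and 145 CPM (-0.23, SE 0.07, adjusted p = 0.0064).

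Ptk7, a kinase-like Wnt co-receptor with a role in planar polarity, stood at 102 and 132 CPM in untreated mutant against 8.26 and 6.87 CPM in wild type ones (log2 fold change 3.93, SE 0.15, adjusted p = 2.6e-17). Dkk2, a secreted ligand of Lrp5 and Lrp6 that blocks Wnt signals, stood at 3.60 and 2.57 CPM in mutant libraries, while the other 14 libraries had 0 counts, at least 22.0-fold higher than in untreated wild type by the floor of 3 counts over the group. Sfrp5, a decoy, was near the limit of detection, at 0.624 and 0.795 CPM against 0.245 and 0 CPM.

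Planar polarity genes that act beside Frizzled proteins formed a second list of 11, of which 9 were tested. Against the same 32.4% higher and 30.1% lower of all genes in untreated libraries, 7 were higher and 1, the effector Daam1 (-0.26, adjusted p = 0.0045), was lower in mutant organoids, with a median log2 fold change of 1.26. Prickle1 stood at 4.09 and 4.47 CPM against 0.572 and 0.218 CPM (log2 fold change 3.34, SE 0.40, adjusted p = 8.4e-08).

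**Figure D4:**
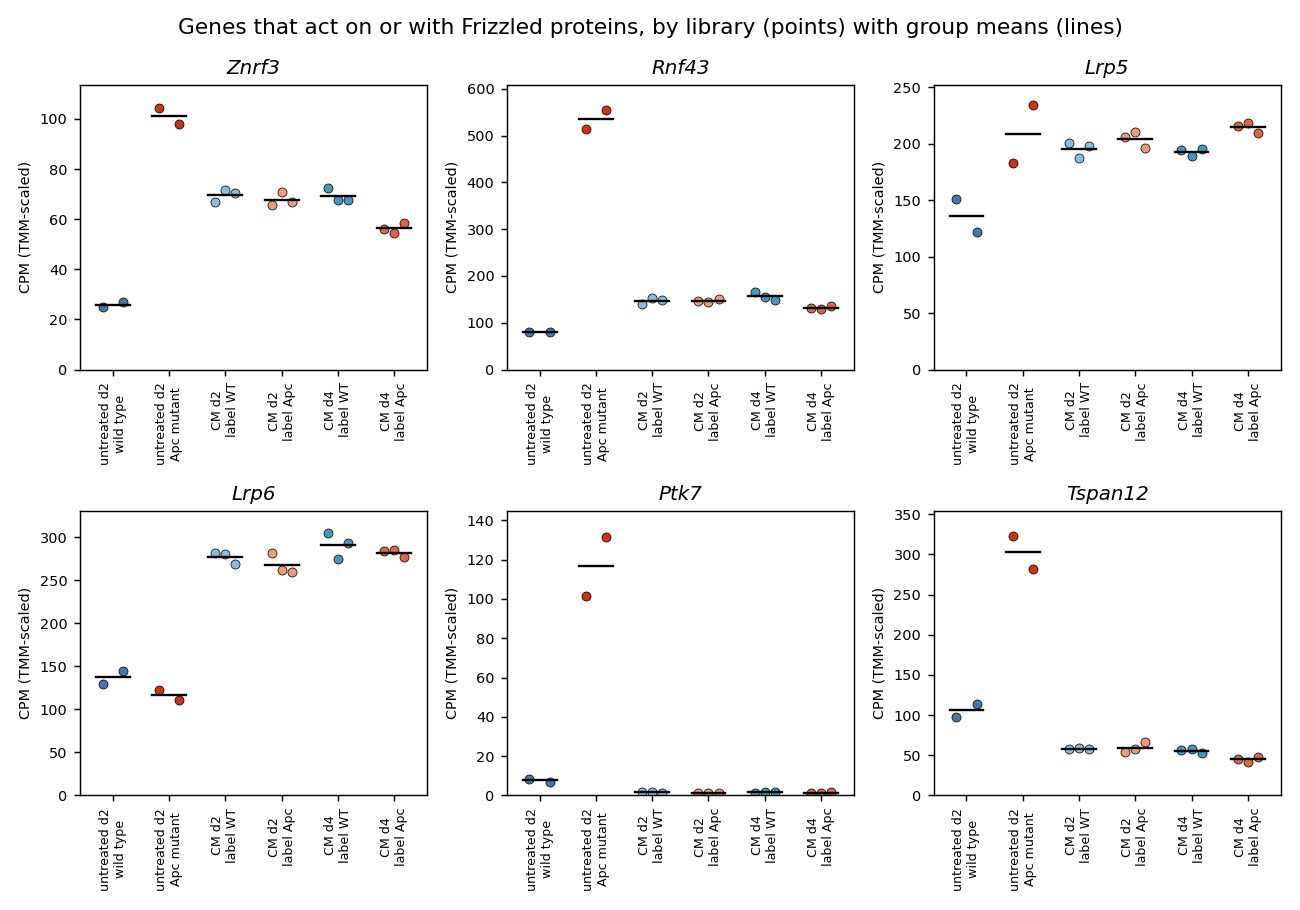
TMM-scaled CPM (y axes, linear from 0, differing between panels) of 6 genes whose proteins act on or with Frizzled proteins in each of 16 libraries (points) by label group (x axes), with the group mean as a line; CM is conditioned medium and d is day. Rnf43 and Ptk7 are highest in the 2 untreated mutant libraries, at 513 and 556 CPM and at 102 and 132 CPM.

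Between labels in conditioned medium the partner list held 1 lower gene of 22 on day 2 and 5 on day 4, with none higher, where 8.15% and 7.8% of all genes were lower. The 22 include Sfrp5, Dkk2, Dkk3, Adgra2 and Reck, with group means of at most 0.180 CPM in conditioned medium. None of these was called between labels, and such low levels leave little room for a call. Fits of 1 medium class called 3 lower on day 2, and 7 lower and 1 higher on day 4. Lgr5, the R-spondin receptor of crypt stem cells, was lower under the Apc mutant label on both days, at 105, 102 and 113 against 139, 164 and 161 CPM on day 2 (log2 fold change -0.54, adjusted p = 1.3e-06) and at 97.3, 93.7 and 96.2 against 172, 163 and 151 CPM on day 4 (-0.76, adjusted p = 7.4e-09). Crypt stem cell markers, a list that includes Lgr5, were lower too, 3 of 4 on day 2 and 4 of 4 on day 4. Rnf43 and Znrf3 stood at 147 and 67.7 CPM against 147 and 69.6 CPM on day 2, where neither passed. On day 4 both were lower (132 against 156 CPM and 56.4 against 69.2 CPM, log2 fold changes -0.24 and -0.29, adjusted p = 0.0016 and 0.00041). Shisa2, which holds Frizzled proteins inside the cell, was lower on day 4 (-0.41, adjusted p = 0.0006). Without replicate 1 of the WT label on day 4 the day 4 values were -0.71 for Lgr5 (adjusted p = 1.0e-07), -0.20 for Rnf43 (0.015), -0.26 for Znrf3 (0.0046) and -0.35 for Shisa2 (0.0068). Lrp5 and Lrp6 did not pass on either day.

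Of the planar polarity genes, Vangl2 was lower under the Apc mutant label on day 2 (-0.29, adjusted p = 0.023) and on day 4 (-0.35, adjusted p = 0.0051). It was the only call of this list on day 2, and the day 2 count ran from 0 to 1 when single libraries were left out. On day 4 Vangl1 was lower (-0.37, adjusted p = 0.0095) and Celsr1 higher (0.33, adjusted p = 0.0087). Without replicate 1 of the WT label the day 4 values were -0.36 for Vangl2 (adjusted p = 0.013), -0.38 for Vangl1 (0.021) and 0.36 for Celsr1 (0.016). Celsr1, a cadherin that links Frizzled complexes of neighbouring cells, rose with time under both labels. Under the WT label it went from 10.9, 11.2 and 10.5 to 23.5, 22.0 and 22.7 CPM (1.06, adjusted p = 2.7e-08, and 1.04 with adjusted p = 3.1e-07 without replicate 1 of day 4), and under the Apc mutant label from 9.32, 10.1 and 8.42 to 31.2, 26.9 and 27.7 CPM (1.63, adjusted p = 4.3e-11).

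The 22 partner genes again include those near 0 in conditioned medium. Of the 22, 1 was lower over time under the WT label and 6 under the Apc mutant label. Over all genes, 11.6% and 11.7% were lower. The 1 was Sfrp5, with 11 counts in all on day 2 and 1 on day 4 (0.138, 0.102 and 0.299 CPM against 0, 0.0448 and 0 CPM, adjusted p = 0.040). It passed the filter only through the untreated mutant group, and its call was lost with DESeq2, with no filter, with the replicate block, without replicate 1 of day 4 (adjusted p = 0.10) or 3 of day 4, and without replicate 1 or 3 of day 2, each of which left 0 calls. The 6 were led by Tspan12, a partner of Fzd4 in Norrin signalling, with a log2 fold change of -0.41 (adjusted p = 0.00029). It was followed by Shisa2 (-0.33, adjusted p = 0.0036), the adaptor Dvl2 (-0.26, adjusted p = 0.038) and Znrf3 (-0.26, adjusted p = 0.00089). Rnf43 was also lower (-0.16, adjusted p = 0.029). Under the WT label Rnf43 and Znrf3 did not pass.

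For the 5 members with a mean of at least 5 CPM in conditioned medium, the genes most like them were sought by Pearson's r of log2(CPM + 0.5) over the 12 libraries and 10446 genes. These libraries share day and label, so the values are descriptions. Fzd7 was most like Traf2 (r = 0.98), Fzd5 like Zbtb7b (0.97), Fzd6 like Rnf125 (0.97), Fzd2 like Grk5 (0.95) and Fzd4 like D430042O09Rik (0.95).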

How the data were processed

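The authors deposited raw read counts per Ensembl gene, 1 table per library. The submitters' processing notes name HISAT2 2.1.0, HTSeq 0.6.1p1, Trimmomatic 0.36 and the build GRCm38, while strand setting and annotation release were not given in the sources used here. Per the labels, libraries were made from total RNA after ribosomal depletion. Reads outside annotated features made up 14.4 to 19.2% in conditioned medium and 4.78 to 7.32% in untreated libraries, and reads with several alignments 26.5 to 33.3% and 36.5 to 38.9%. These summary lines were left out. Symbols, coordinates and exon lengths came from GENCODE M21.

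edgeR's quasi-likelihood test (edgeR 4.0.16, R 4.3.3) was fitted to all 6 groups at once, with TMM scaling (factors 0.898 to 1.26), filterByExpr (10 counts at the median library size in at least 2 libraries; 16510 genes kept), 10 residual degrees of freedom and Benjamini-Hochberg adjustment over all genes tested. An adjusted p under 0.05 was called, and 7 comparisons were made. Scripts were tested on simulated counts. Levels are TMM-scaled CPM, divided by kilobases of the union of exons where genes were compared. A count of 0 was bounded by a floor of 3 counts.

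The members and gene lists were chosen with earlier results of these data known. Named in the text were all members, Lrp5, Lrp6, Znrf3, Rnf43 and, per comparison, up to 5 list genes with the largest log2 fold change that passed without overlap; Daam1 was named after its value was seen. Alternatives were DESeq2 1.42.0, RLE scaling, no filter, separate fits by medium, protein-coding genes only, a replicate block, leaving out each library and the longest transcript as length.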

Additional observations from a re-analysis of the deposited data

Results flagged for a closer look

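Fzd5 was picked out because its label difference in conditioned medium changed between days, by 0.45 on the log2 scale in the edgeR interaction test.

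For 7 members the label difference on day 2 in conditioned medium differed from that in untreated libraries in the same test, which 53.1% of all genes passed (26.7% upward, 26.4% downward). On the log2 scale the conditioned medium difference minus the untreated one was -2.78 for Fzd1 (SE 0.34, adjusted p = 1.9e-07), -1.28 for Fzd2, -2.47 for Fzd3, 3.45 for Fzd5 (SE 0.09, adjusted p = 2.4e-20), -0.97 for Fzd6, -0.54 for Fzd7 and 2.17 for Fzd8. The Fzd8 value lost its call without replicate 2 of the Apc mutant label on day 2 in conditioned medium (adjusted p = 0.14), without replicate 4 of the untreated mutant (0.072) and without replicate 4 of the untreated wild type (0.055). Fzd10 gave no usable edgeR value, as 3 of the 4 groups were at 0. DESeq2 did call it (-7.51, adjusted p = 0.0036), a value that rests on its reads in the untreated mutant group alone. Fzd4 (0.01) and Fzd9 (-0.62) did not pass. Since Wnt targets in conditioned medium go against the mutant label, what the label contrasts there cannot be told apart from the source of the medium. The source of the cells also differs between the media, and this test cannot separate it from the medium.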

How the results depend on the processing

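Of 28 member results that passed, 23 kept their direction and call under every alternative run, and 0 changed direction. The 5 others were Fzd2, Fzd4 and Fzd6 over time under the Apc mutant label, Fzd4 over time under the WT label and Fzd8 in the interaction of label and medium. DESeq2 moved Fzd2 over time under the Apc mutant label to an adjusted p of 0.052. Without single libraries, the members called over time under the Apc mutant label numbered 2 to 5.

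The partner list over time under the WT label had 1 call, Sfrp5, which became 0 with DESeq2, with no filter and with the replicate block, 2 in a fit of 1 medium class, and 0 to 1 without single libraries. Fits of 1 medium class gave 3 partner calls between labels on day 2 and 8 on day 4, and no filter gave 2 on day 2, against 1 and 5. Under the Apc mutant label over time, leaving out libraries gave 3 to 5 partner calls against 6. The causes were not tested.

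Interactions that did not pass, and Fzd10 where both groups were at 0 counts, were left out of the next count. Of the 26 other member results that did not pass, 7 changed sign when single libraries were left out. Their log2 fold changes ran from -0.42 to 0.21 for Fzd4 in untreated libraries, and from -0.00032 to 0.084 for Fzd7 between labels on day 2. Between labels on day 4 they ran from -0.046 to 0.069 for Fzd6, -0.082 to 0.052 for Fzd7 and -0.085 to 0.24 for Fzd8. Over time under the Apc mutant label they ran from -0.11 to 0.25 for Fzd1 and from -0.14 to 0.12 for Fzd9. Without replicate 3 of the Apc mutant label on day 2, 1725 genes were called between labels on day 2, against 2755.

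In conditioned medium the correlation of same-numbered deviations was small, between -0.082 and 0.068, which cannot exclude that replicate numbers pair the libraries. Between days under the Apc mutant label it was 0.063, 0.068 and 0.064, above every crossed pair there (at most 0.035). With the replicate block the members called stayed at 8, 2, 2, 3 and 5 in the order untreated, day 2, day 4, WT label over time and Apc mutant label over time. In untreated libraries the correlation was -0.29, and the crossed pairing, chosen after seeing the data, called 10564 genes and 8 members, against 10319 and 8. With 1 library left in an untreated group, that library was assumed to vary like the other groups. Depth limits Fzd8, with 3 to 23 counts per library, and the bounds of Fzd10.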
